A study of Mus musculus with 12 samples.

Results

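The 32 genes described here carry dietary fat through the duodenal enterocyte: they take up and activate fatty acids, rebuild triacylglycerol, load it onto apolipoprotein B and export it as chylomicrons, or store it in droplets. They were chosen by name for their known roles in fat absorption, and the rule used no measured value. Earlier results of these data were known when the genes were chosen. They are 32 of 15583 named genes, and of 26107 features in all, that passed the filter on dim probes. All 32 had a probe well above background on every one of the 12 arrays, so none of them entered through a single group.

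The arrays measured RNA of whole duodenum from 12 male mice, 3 in each of 4 groups. The groups were Akp3-/- mice (IAP-KO, here KO) given IIAEK, KO mice given vehicle, wild-type (WT) mice given IIAEK, and WT mice given vehicle. Akp3 encodes an intestinal alkaline phosphatase, and IIAEK is a short peptide first known from the digestion of milk beta-lactoglobulin. The dose was 600 mg/kg a day by mouth for 14 days, the vehicle was carboxymethylcellulose sodium salt at 5 g/L, the mice were 7 weeks old, and tissue was taken after an 8 h fast. The source names of the IIAEK samples carry other durations than the titles, and 14 days is used here. The sources used here state neither the strain nor the way Akp3 was disrupted. The comparisons ask whether the peptide alters the duodenal transcriptome and whether that depends on Akp3.

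In the enterocyte, luminal fatty acids and monoacylglycerol enter at the brush border, are bound by fatty acid binding proteins and are activated to acyl-CoA. Acyltransferases in the endoplasmic reticulum rebuild triacylglycerol, which the microsomal transfer protein adds to apolipoprotein B as it is made. The resulting prechylomicrons leave in COPII-coated carriers and reach the lymph, while surplus triacylglycerol waits in cytosolic droplets that lipases can reopen.

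Promoter sequences are shown for 5 genes on which the results below turn: Agpat2, the gene with the smallest p in any comparison, Fabp1 and Fabp2, the pair with the smallest gap for its range, and Apoa4 and Apobec1, which share a motif with Fabp2. They come from RefSeq on GRCm38.p6 and run 5′ to 3′ on the gene's strand, from 250 bases before the start. Capitals mark the motifs searched.
Agpat2: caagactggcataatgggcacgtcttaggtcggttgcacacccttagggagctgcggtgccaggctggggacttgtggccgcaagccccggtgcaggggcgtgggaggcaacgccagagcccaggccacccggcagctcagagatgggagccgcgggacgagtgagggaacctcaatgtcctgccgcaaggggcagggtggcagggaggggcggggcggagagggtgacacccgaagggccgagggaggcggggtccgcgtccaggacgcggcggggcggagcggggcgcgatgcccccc
Fabp1: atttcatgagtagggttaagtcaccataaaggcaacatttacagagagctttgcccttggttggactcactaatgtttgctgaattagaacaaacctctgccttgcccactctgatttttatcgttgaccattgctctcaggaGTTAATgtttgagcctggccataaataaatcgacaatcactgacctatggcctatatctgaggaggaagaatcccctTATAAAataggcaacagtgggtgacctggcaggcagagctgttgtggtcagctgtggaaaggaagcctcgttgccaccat
Fabp2: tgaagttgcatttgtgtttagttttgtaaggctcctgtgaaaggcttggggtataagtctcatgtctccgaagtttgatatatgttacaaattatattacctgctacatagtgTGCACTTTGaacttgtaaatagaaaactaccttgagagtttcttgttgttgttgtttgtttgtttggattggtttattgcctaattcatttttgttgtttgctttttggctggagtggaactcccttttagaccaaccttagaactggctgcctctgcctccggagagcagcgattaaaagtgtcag
Apoa4: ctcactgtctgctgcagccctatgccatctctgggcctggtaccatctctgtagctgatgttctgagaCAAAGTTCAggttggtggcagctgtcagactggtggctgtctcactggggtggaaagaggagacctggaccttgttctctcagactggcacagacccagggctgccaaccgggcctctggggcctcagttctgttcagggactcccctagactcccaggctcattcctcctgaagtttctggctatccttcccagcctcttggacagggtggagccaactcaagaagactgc
Apobec1: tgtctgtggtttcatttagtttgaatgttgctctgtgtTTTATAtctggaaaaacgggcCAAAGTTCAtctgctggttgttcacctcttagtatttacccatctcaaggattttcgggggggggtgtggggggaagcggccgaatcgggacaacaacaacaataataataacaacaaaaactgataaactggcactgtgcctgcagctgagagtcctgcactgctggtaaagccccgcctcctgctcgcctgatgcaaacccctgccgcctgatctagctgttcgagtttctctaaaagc
Their places are chr2:26604368-26604667 (minus strand) for Agpat2, chr6:71199629-71199928 (plus) for Fabp1, chr3:122894822-122895121 (plus) for Fabp2, chr9:46240594-46240893 (plus) for Apoa4 and chr6:122602395-122602694 (minus) for Apobec1. Of the 32 genes, 27 matched the RefSeq promoter table, with 34 promoters. Apoc3, Dgat1, Dgat2, Mogat2 and Tm6sf2 were not among them. Both strands were searched for 4 motifs. Matches in these genes were counted by gene, in any of its promoters. The shares over all genes were counted by promoter, so the counts and shares are not like for like. TGNACTTTG, the kind of direct repeat that the enterocyte factor HNF4 binds, stood in a promoter of Apoa4, Apobec1 and Fabp2, 3 of 27 genes, and in 1.41% of 32851 promoters of all genes. GTTAAT, part of an HNF1 site, stood in Apoc2, Fabp1 and Lpin2, and in 7.10% of all promoters. The letters AGATAA, a target of the zinc-finger factor Gata4 and its relatives, stood in Creb3l3 and in 11.2% of all promoters. TATAAA stood in Apob, Apobec1, Cideb and Fabp1 and in 13.6% of all promoters. In Agpat2 none of these letters occurred in the window. The matches shown do not overlap, and a match is a description of the letters.

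Levels are log2 processed intensity minus the array's 75th percentile, so that 0 is the brightness below which 75% of probes lie. They compare arrays for a gene, not genes with each other. The Akp3 probe used here read -4.90 to -3.80 on the 6 KO arrays, against 1.05 to 2.72 on the 6 WT arrays, and was well above background on 3 KO arrays and all 6 WT arrays. A second Akp3 probe read -6.76 to -5.21 on the KO arrays, well above background on 0 of 6, against 1.20 to 2.20 on the WT arrays. Whether these probes lie inside the disrupted stretch of Akp3 could not be read from the labels. On each array 55.9% to 64.0% of probes were well above background, and replicate arrays correlated at 0.973 to 0.991 across probes. The labels do not tie replicates to litters or extraction days, so p-values measure the spread between these samples.

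Marker genes of neighbouring tissues differed between arrays, in part along with the groups. All 21 enterocyte villus markers passed the filter, with mean levels of 4.11 to 4.80. Of 12 stomach and Brunner's gland markers, 9 passed. Their mean was 3.68 to 5.26 on 6 arrays (KO IIAEK 3, KO vehicle 1, WT IIAEK 3 and all 3 WT vehicle) and -2.18 to -0.75 on the other 6. It was thus high on all 3 WT vehicle arrays and on 1 of 3 arrays in each other group. The mean of 27 pancreas markers was 1.52 on WT vehicle 1 and 6.39 to 8.64 elsewhere. KO IIAEK 3 had the lowest enterocyte mean (4.11), the highest smooth muscle mean (3.98) and the highest adipocyte mean (-0.19, over 9 of 11 markers). The arrays sat on 2 slides, 7 on slide 1 and 5 on slide 2, each holding all 4 groups.

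**Figure D1:**
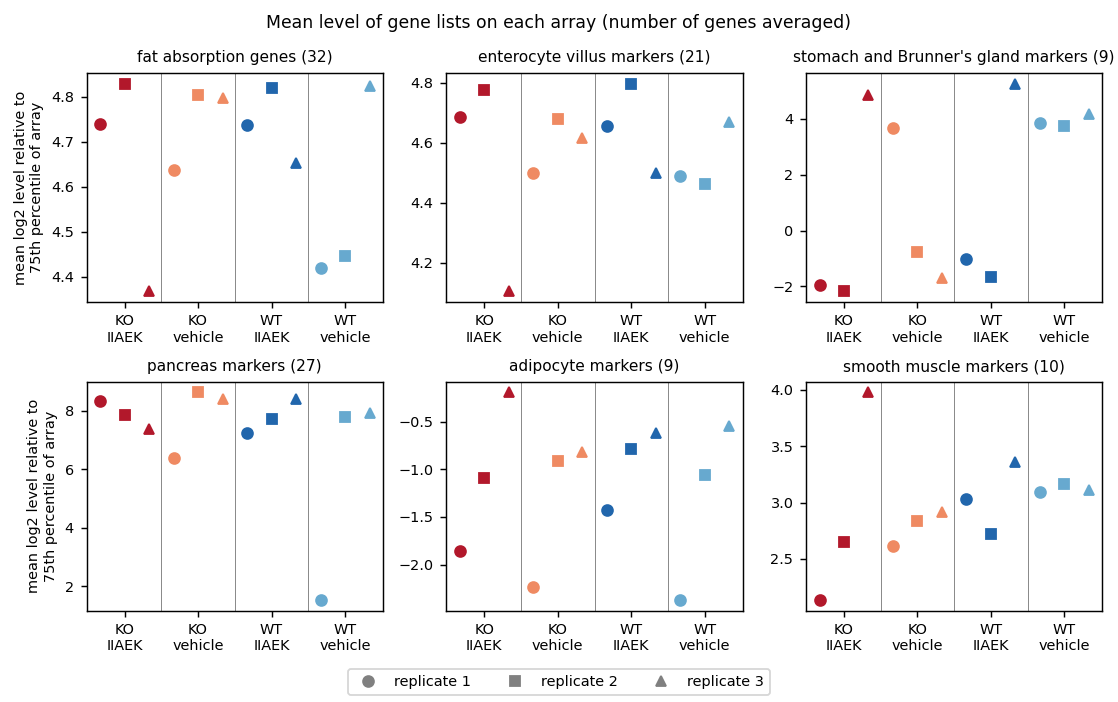
Mean log2 level of 6 gene lists on each of the 12 arrays, with groups along the x axis, one point per array and marker shape for the replicate. The fat absorption genes average between 4.37 and 4.83, and the 3 lowest points are KO IIAEK 3, WT vehicle 1 and WT vehicle 2.

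The levels of the 32 genes followed single arrays. Their mean level was 4.74, 4.83 and 4.37 in KO IIAEK, 4.64, 4.80 and 4.80 in KO vehicle, 4.74, 4.82 and 4.65 in WT IIAEK, and 4.42, 4.45 and 4.83 in WT vehicle. Within KO IIAEK and within WT vehicle the arrays therefore spread more widely than the group means differ. KO IIAEK 3 held the lowest of the 12 values for 13 of 32 genes, against 25.0% of all features. WT vehicle 1 held the lowest for 8 genes (9.75% of all features) and WT vehicle 2 for 5 (3.73%). These 3 arrays carried 26 of the 32 lowest values and 38.5% of those of all features, and the other 9 arrays carried 6. On KO IIAEK 2, by contrast, 31 of the 32 genes stood above their own mean. All 3 arrays with many minima are among the 6 rich in stomach transcripts. On the 6 arrays poor in stomach transcripts the mean of the 32 genes lay between 4.74 and 4.83, and on the 6 rich ones between 4.37 and 4.83. The part of tissue make-up in these levels was not tested, and in whole tissue, fewer cells of a type and less RNA per cell cannot be told apart.

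**Figure D2:**
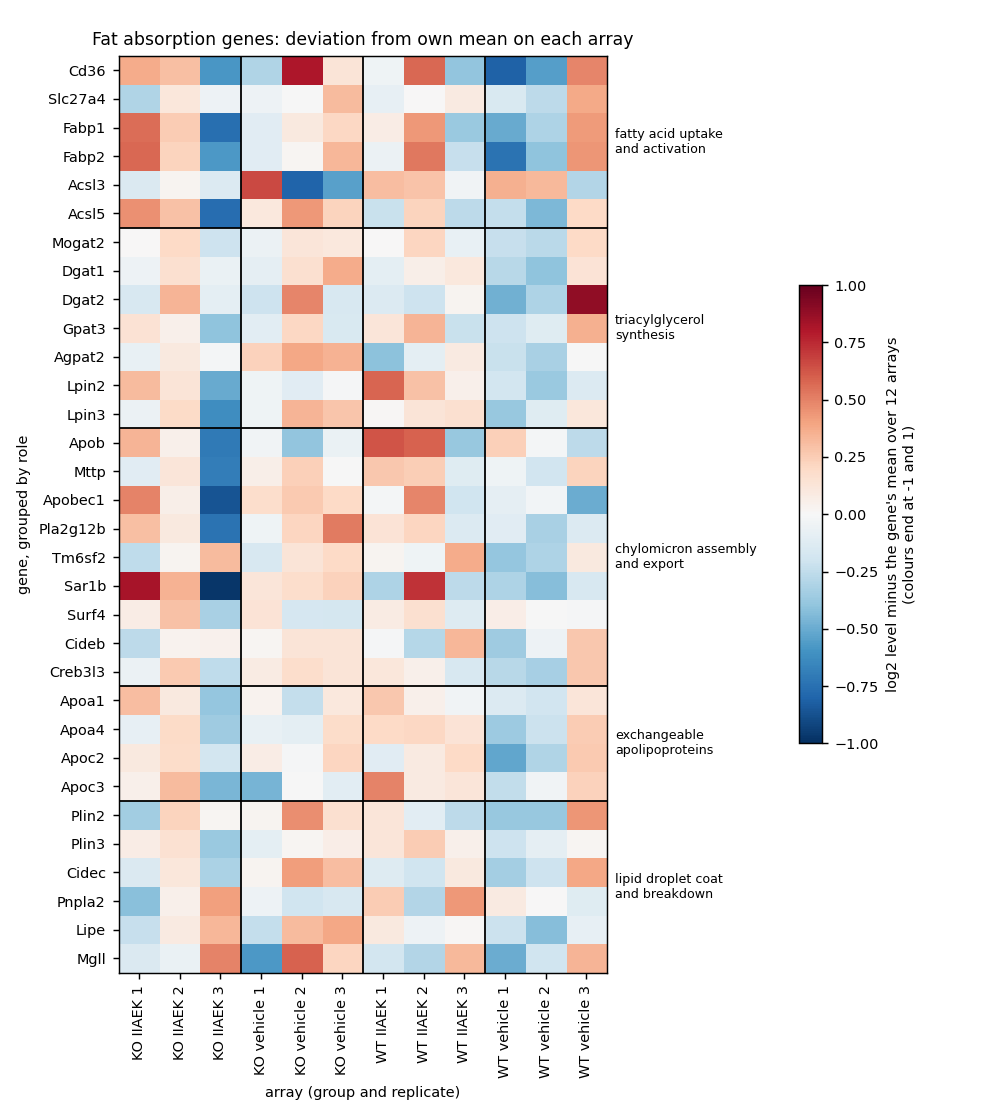
Each gene's log2 level minus its own mean over the 12 arrays, with genes as rows by role and arrays as columns by group. The columns KO IIAEK 3, WT vehicle 1 and WT vehicle 2 are mostly blue (low). On KO IIAEK 3, however, Pnpla2, Mgll, Lipe and Tm6sf2 are red (high).

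Among the genes of fatty acid uptake and activation, Fabp1 and Fabp2, the liver-type and intestinal fatty acid binding proteins of the enterocyte cytosol, had the smallest gap for their range of all 496 pairs, taking the largest gap on any array over the smaller range of the pair. The pair was picked out after its values were seen. Fabp1 read 9.996, 9.69 and 8.69 in KO IIAEK, 9.32, 9.54 and 9.65 in KO vehicle, 9.51, 9.88 and 9.07 in WT IIAEK, and 8.94, 9.13 and 9.86 in WT vehicle. Fabp2 read 10.04, 9.69 and 8.89 in KO IIAEK, 9.35, 9.48 and 9.79 in KO vehicle, 9.40, 9.99 and 9.24 in WT IIAEK, and 8.73, 9.06 and 9.90 in WT vehicle. After each gene's mean was removed they differed by at most 0.232 on any array, although each ranged over at least 1.31. The steadier Creb3l3 and Mogat2 had a smaller gap, 0.161, over a range of 0.48. For Fabp1 and Fabp2 every pair of groups overlapped. Cd36, a membrane fatty acid translocase, read 0.73, 0.66 and -0.22 in KO IIAEK, 0.05, 1.17 and 0.48 in KO vehicle, 0.31, 0.93 and -0.04 in WT IIAEK, and -0.45, -0.19 and 0.85 in WT vehicle. Its groups overlapped throughout, and it had the second widest range after Sar1b. Acsl3, an acyl-CoA synthetase of the endoplasmic reticulum and lipid droplets, read -0.59, -0.42 and -0.59 in KO IIAEK, 0.21, -1.25 and -0.99 in KO vehicle, -0.14, -0.17 and -0.48 in WT IIAEK, and -0.10, -0.12 and -0.74 in WT vehicle. The KO vehicle arrays were the most spread, with the highest and the lowest value of the 12. Acsl5, the synthetase most associated with the intestine, ranged from 4.67 to 5.89, and Slc27a4, the fatty acid transport protein FATP4, from -0.67 to 0.01.

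Triacylglycerol is rebuilt by monoacylglycerol and diacylglycerol acyltransferases and, on the glycerol phosphate route, by Gpat3, Agpat2 and the lipins. Mogat2, the intestinal monoacylglycerol acyltransferase, had the smallest range, 6.30 to 6.78. Dgat1 and Dgat2 add the last acyl chain. Dgat1 ranged from 4.43 to 5.20. Dgat2 read 5.42, 5.92 and 5.48 in KO IIAEK, 5.37, 6.07 and 5.42 in KO vehicle, 5.44, 5.37 and 5.61 in WT IIAEK, and 5.10, 5.27 and 6.47 in WT vehicle, where 1 array was the highest and another the lowest of the 12. Gpat3, which acylates glycerol phosphate, ranged from 3.40 to 4.15. Agpat2, which makes phosphatidic acid, read 6.06, 6.24 and 6.12 in KO IIAEK, 6.37, 6.53 and 6.48 in KO vehicle, 5.73, 6.04 and 6.23 in WT IIAEK, and 5.91, 5.81 and 6.13 in WT vehicle. All 3 KO vehicle arrays stood above the other 9. The lipins Lpin2 and Lpin3 turn phosphatidic acid into diacylglycerol. Lpin2 read 3.09, 2.90 and 2.26 in KO IIAEK, 2.72, 2.66 and 2.76 in KO vehicle, 3.35, 3.07 and 2.82 in WT IIAEK, and 2.59, 2.40 and 2.63 in WT vehicle. WT IIAEK lay above WT vehicle without overlap, and the lowest array was KO IIAEK 3. Lpin3 ranged from 1.89 to 2.86.

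Assembly and export begin with Apob, the structural protein of the chylomicron, and Mttp, the transfer protein that lipidates it. Apob read 6.88, 6.59 and 5.84 in KO IIAEK, 6.51, 6.15 and 6.47 in KO vehicle, 7.17, 7.13 and 6.16 in WT IIAEK, and 6.78, 6.52 and 6.28 in WT vehicle. Mttp read 5.50, 5.74 and 4.93 in KO IIAEK, 5.68, 5.86 and 5.62 in KO vehicle, 5.89, 5.87 and 5.50 in WT IIAEK, and 5.57, 5.43 and 5.84 in WT vehicle. For both genes KO IIAEK 3 was the lowest array and the groups overlapped. Apobec1, the deaminase that edits Apob mRNA to the intestinal short form, read 4.52, 4.09 and 3.16 in KO IIAEK, 4.20, 4.29 and 4.22 in KO vehicle, 4.01, 4.51 and 3.83 in WT IIAEK, and 3.94, 3.999 and 3.53 in WT vehicle. Sar1b, the small GTPase that starts the COPII coat of the prechylomicron carrier, had the widest range of all, 1.79. It read 5.11, 4.64 and 3.32 in KO IIAEK, 4.41, 4.47 and 4.53 in KO vehicle, 3.99, 5.02 and 4.03 in WT IIAEK, and 3.98, 3.87 and 4.13 in WT vehicle. KO IIAEK thus held both the highest and the lowest Sar1b array, and KO vehicle lay above WT vehicle without overlap. Pla2g12b, a catalytically inactive phospholipase relative needed for lipoprotein lipidation, ranged from 1.57 to 2.83. Tm6sf2 and Cideb, both involved in loading lipid onto the particle, ranged from 4.37 to 5.12 and from 5.68 to 6.37. Surf4, a cargo receptor for lipoproteins, ranged from 4.92 to 5.53, and Creb3l3, a membrane-bound transcription factor that drives apolipoprotein genes, from 5.91 to 6.52.

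The exchangeable apolipoproteins of the particle surface had these ranges: Apoa1 from 6.38 to 7.07, Apoa4, which is induced by fat absorption, from 8.23 to 8.85, Apoc2, the cofactor of lipoprotein lipase, from 7.92 to 8.70, and Apoc3, its inhibitor, from 6.96 to 7.92. Of the droplet genes, the coat proteins Plin2 and Plin3 ranged from 3.56 to 4.41 and from 5.52 to 6.14, and the droplet fusion protein Cidec from 4.36 to 5.12. The lipases that release stored fat in turn, Pnpla2, Lipe and Mgll, ranged from 3.14 to 3.99, from -2.93 to -2.12 and from 1.02 to 2.18. Lipe was the only 1 of the 32 genes below the 75th percentile on all arrays, 3 crossed it (Cd36, Slc27a4 and Acsl3), and 28 lay above it throughout. Many of these genes were lowest on KO IIAEK 3. There, Pnpla2 at 3.97, Mgll at 2.09, Lipe at -2.17 and Tm6sf2 at 5.07 were near the top of their ranges.

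**Figure D3:**
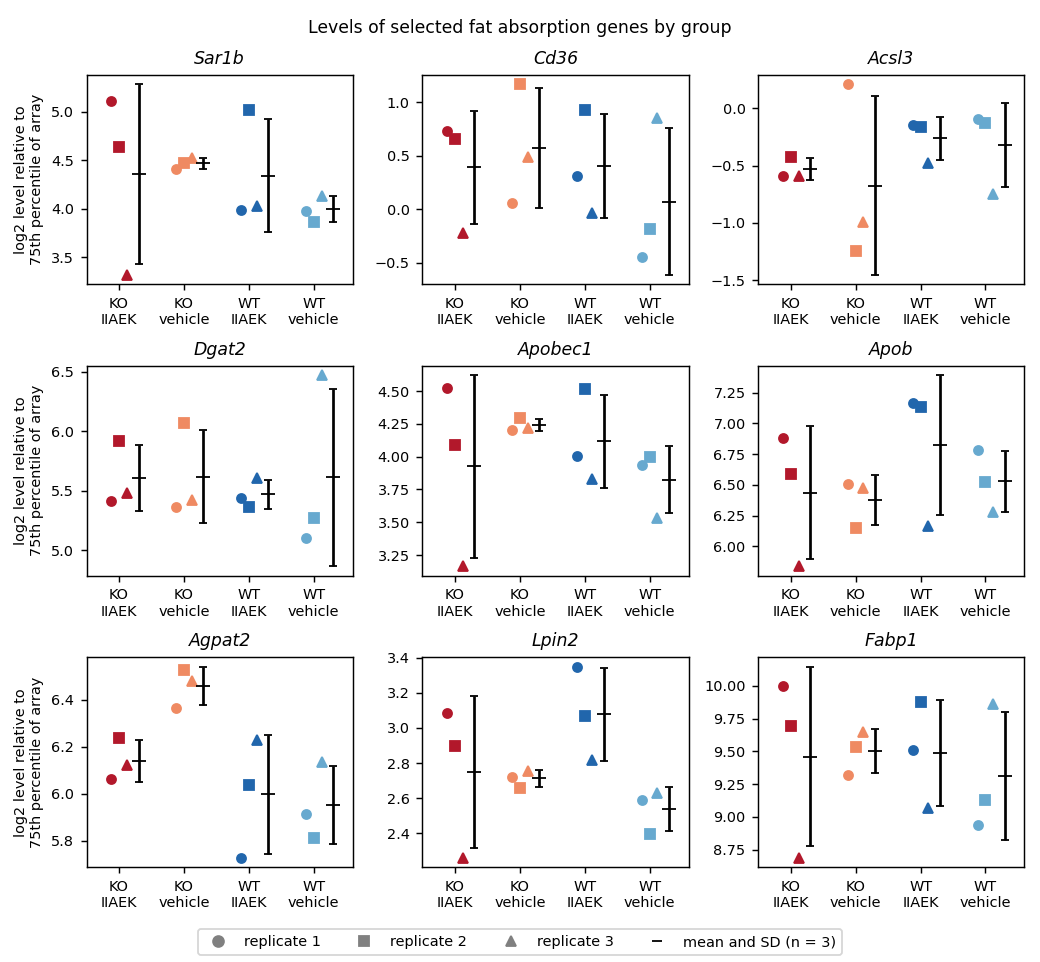
Log2 levels of 9 of the genes on each array, by group, with points shaped by replicate and black bars for the mean and SD of 3 arrays. The top 6 panels are the genes with the widest ranges, 1.33 to 1.79, and KO IIAEK 3 is the lowest array for Sar1b, Apobec1, Apob, Lpin2 and Fabp1.

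KO was compared with WT under vehicle. Of the 32 genes, 26 were higher and 6 lower in KO, with a median log2 difference of 0.20, against 0.03 over all features. Among the 21 enterocyte markers 14 were higher, with a median of 0.08. Many of the 32 genes moved together by array, so counts of direction are not counts of separate observations. None of the 32 genes passed an adjusted p of 0.05 in the limma fit across all features (0.00766% of all features did). At an unadjusted p under 0.05, 1 gene was higher, Agpat2, and none lower, where 2.15% of all features were higher. Agpat2 averaged 6.46 ± 0.08 in KO vehicle and 5.95 ± 0.17 in WT vehicle (SD, n = 3 each), a log2 difference of 0.50 (SE 0.152, adjusted p = 0.993). Its second probe gave 2.54, 2.88 and 2.68 in KO vehicle, against 2.02, 1.99 and 2.34 in WT vehicle, a difference of 0.59. The difference of the used probe was 0.50 within slide 1, where KO vehicle 1 was the only KO vehicle array. It was 0.37 within slide 2, where WT vehicle 3 was the only WT vehicle array. Groups did not overlap for 5 genes, all higher in KO (Agpat2, Apobec1, Lpin2, Pla2g12b and Sar1b), where 8.5% of features did so upward. None did so downward, where 5.87% of features did. Further probes of 2 of these genes differed: Lpin2 gave 0.28 and -0.11, and Apobec1 gave 0.46 and 0.04. For each gene the groups overlapped on the second of these probes. The next smallest p-values belonged to Dgat1 (0.33, SE 0.170), Lipe (0.40, SE 0.217), Pla2g12b (0.42, SE 0.248), Lpin3 (0.32, SE 0.209) and Cidec (0.30, SE 0.203), with an adjusted p of 0.993 for each. Cidec turned to -0.03 within slide 2. By role, the median difference was 0.25 for uptake (5 of 6 higher), 0.17 for triacylglycerol synthesis (6 of 7), 0.24 for assembly and export (7 of 9), 0.07 for the exchangeable apolipoproteins (3 of 4) and 0.25 for droplet genes (5 of 6). The median of the 32 genes was 0.21 within slide 1, -0.07 within slide 2, 0.41 without WT vehicle 3 and 0.09 without WT vehicle 1. With the means of the stomach and pancreas markers as covariates it was 0.01. The stomach mean was high on every WT vehicle array but, among KO vehicle arrays, on KO vehicle 1 only. The pancreas mean was far lower on WT vehicle 1 than on any other array. These covariates thus partly follow the groups, and the part of tissue make-up was not tested. With quantile scaling the median of the 32 genes was 0.12, with 21 genes higher.

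KO was next compared with WT under IIAEK. Here 7 genes were higher and 25 lower in KO, with a median of -0.06, against -0.01 over all features. No gene passed the adjusted threshold (0.00766% of all features) and none had an unadjusted p under 0.05. No gene separated the groups upward (1.65% of features did) or downward (2.19%). These counts use the brightest probe of each gene. A dimmer Lpin2 probe gave -0.45 (SE 0.150, unadjusted p = 0.0123, limma), and its groups did not overlap. The smallest p-values were those of Mttp, Lpin2, Apoa4, Lpin3, Plin3 and Apob. Mttp averaged 5.39 ± 0.42 in KO IIAEK and 5.75 ± 0.22 in WT IIAEK (SD, n = 3 each), a difference of -0.36 (SE 0.210, adjusted p = 0.99998 in the limma fit). The other differences were -0.33 for Lpin2 (SE 0.206), -0.26 for Apoa4 (SE 0.195), -0.26 for Lpin3 (SE 0.209), -0.19 for Plin3 (SE 0.153) and -0.38 for Apob (SE 0.311). By role, 8 of 9 assembly genes and 4 of 4 exchangeable apolipoproteins had a negative difference, with medians of -0.09 and -0.18. The medians were -0.02 for uptake (5 of 6 negative), -0.05 for synthesis (5 of 7) and 0.0025 for droplet genes (3 of 6). Without KO IIAEK 3 the median of the 32 genes was 0.03. It was 0.02 within slide 1 and -0.31 within slide 2, where 29 of the 32 genes were lower. Slide 2 sets KO IIAEK 3 alone against WT IIAEK 3 alone, so those values describe single arrays. With the enterocyte marker mean as a covariate the median of the 32 genes was 0.01.

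The peptide was compared with vehicle in WT mice. Of the 32 genes, 30 were higher and 2 lower under IIAEK, with a median of 0.17, against 0.03 over all features. Among the 21 enterocyte markers 15 were higher, with a median of 0.09. No gene passed the adjusted threshold, and 0% of all features did. At an unadjusted p under 0.05, 1 gene was higher, Lpin2, where 1.70% of all features were, and none was lower. Lpin2 averaged 3.08 ± 0.27 in WT IIAEK and 2.54 ± 0.13 in WT vehicle (SD, n = 3 each), a difference of 0.54 (SE 0.206, adjusted p = 0.999 in the limma fit). Of its other 2 probes, 1 separated the groups, at -1.30, -1.27 and -1.22 in WT IIAEK, against -1.58, -1.84 and -1.50 in WT vehicle, and the other overlapped. The difference was 0.71 within slide 1 and 0.19 within slide 2. Groups did not overlap for Lpin2, Lipe and Plin3, all higher, 3 of 32, where 5.58% of features did so upward, and for none downward, where 3.69% did. Tm6sf2 (0.32, SE 0.195), Plin3 (0.23, SE 0.153), Apoa4 (0.29, SE 0.195), Lipe (0.26, SE 0.217) and Dgat1 (0.20, SE 0.170) followed. Within slide 2, Apoa4 was at -0.12 and Dgat1 at -0.03. By role, all 9 assembly genes and all 4 exchangeable apolipoproteins were higher, with medians of 0.26 and 0.25, against 0.13 for uptake, 0.14 for synthesis and 0.11 for droplet genes. The median of the 32 genes was 0.34 within slide 1, -0.12 within slide 2, 0.09 without WT vehicle 1 and 0.29 without WT vehicle 3. With the stomach and pancreas covariates it was -0.02. Those covariates partly follow the groups here too, since the stomach mean was high on every WT vehicle array but only on WT IIAEK 3 under IIAEK. With quantile scaling the median was 0.05, with 22 genes higher. This comparison shares the WT vehicle arrays with that of KO and WT under vehicle.

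In KO mice most of the differences between IIAEK and vehicle were negative. Under IIAEK 8 genes were higher and 24 lower than under vehicle, with a median of -0.07, against -0.00 over all features. No gene passed the adjusted threshold (0% of all features), and none had an unadjusted p under 0.05. Agpat2 separated the groups downward, 1 of 32, where 2.70% of features did, and no gene did upward, where 1.98% did. Agpat2 averaged 6.14 ± 0.09 in KO IIAEK and 6.46 ± 0.08 in KO vehicle (SD, n = 3 each), a difference of -0.32 (SE 0.152, adjusted p = 0.9999 in the limma fit). It was followed by Cidec (-0.37, SE 0.203), Lpin3 (-0.36, SE 0.209), Mttp (-0.33, SE 0.210), Pla2g12b (-0.34, SE 0.248) and Plin2 (-0.26, SE 0.238). Within slide 1, Lpin3 was at 0.11 and Pla2g12b at 0.25. Without KO IIAEK 3 the median of the 32 genes was 0.05, and within slide 1 it was 0.15, while within slide 2 it was -0.40. Slide 2 holds that array as its only KO IIAEK sample, and there Sar1b was at -1.18 (SE 0.187, adjusted p = 0.0492, limma), the only call among the 32 genes under any setting run. That fit has 5 arrays in 4 groups and 1 residual degree of freedom. A gene's own spread comes from KO vehicle 2 and 3 alone, and limma moderates it with a spread fitted over all features. The fit assumes that the lone KO IIAEK array varies likewise. KO IIAEK 3 was rich in stomach transcripts and KO vehicle 2 and 3 were poor, so treatment and tissue cannot be told apart there. This comparison shares the KO IIAEK arrays with that of KO and WT under IIAEK.

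**Figure D4:**
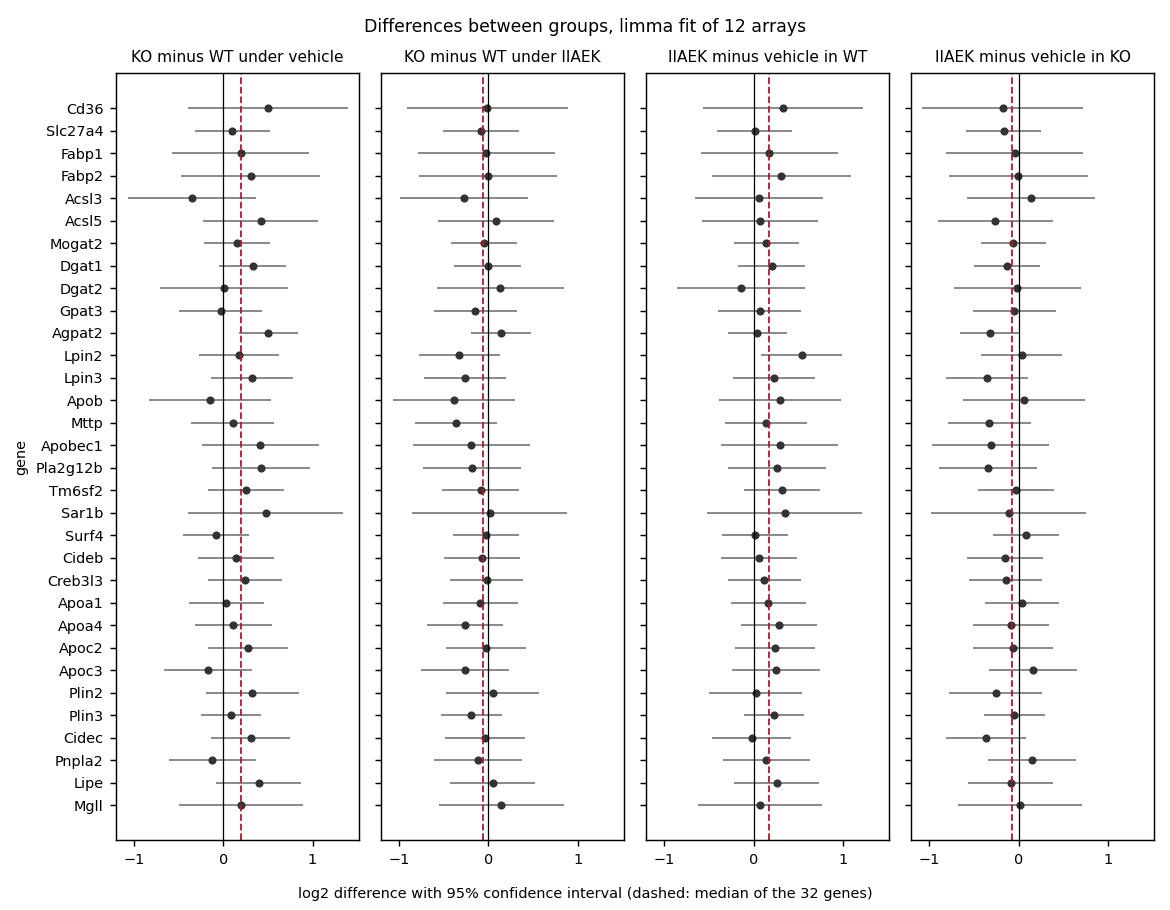
Log2 differences of the 32 genes with 95% confidence intervals in the 4 pairwise comparisons, genes as rows, zero as a solid line and the median of the genes as a dashed line. Points lean right of zero under vehicle and in WT, left in the other panels, and only the intervals of Agpat2 (KO minus WT under vehicle) and Lpin2 (IIAEK minus vehicle in WT) lie clear of zero.

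The difference between the IIAEK effects in KO and WT was tested as an interaction. It was negative for 28 genes and positive for 4, with a median of -0.29, against -0.04 over all features. Among the 21 enterocyte markers it was positive for 2, with a median of -0.19. No gene passed the adjusted threshold (0% of all features), and none had an unadjusted p under 0.05. The 6 smallest p-values belonged to Lpin3 (-0.58, SE 0.295), Pla2g12b (-0.61, SE 0.351), Lpin2 (-0.50, SE 0.291), Agpat2 (-0.36, SE 0.216), Mttp (-0.46, SE 0.297) and Apobec1 (-0.61, SE 0.425). The median was -0.19 within slide 1, -0.16 within slide 2, -0.12 with the stomach and pancreas covariates, -0.46 without WT vehicle 3 and -0.20 without KO IIAEK 3.

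Averaged over treatment, KO minus WT gave a median of 0.08 (21 higher, 11 lower), against 0.01 over all features. No gene passed the adjusted threshold (0.0192% of all features), and Agpat2 alone had an unadjusted p under 0.05 upward (0.32, SE 0.108, adjusted p = 0.999, limma), where 1.37% of features did. It was followed by Lipe (0.22), Apoc3 (-0.22), Acsl3 (-0.31), Dgat1 (0.16) and Apob (-0.27). Dimmer probes of Lpin2 and Apob gave -0.28 and -0.29, with unadjusted p of 0.024 and 0.047 (limma). The median was 0.10 within slide 1, -0.18 within slide 2, 0.0048 without WT vehicle 1 and -0.07 with the stomach and pancreas covariates. Lipe was at -0.01 within slide 1 and Dgat1 at -0.02 within slide 2. Averaged over genotype, IIAEK minus vehicle gave a median of 0.05 (20 higher, 12 lower), against 0.02, with no gene passing the adjusted threshold (0% of all features) and none with an unadjusted p under 0.05. Its smallest p-values were those of Lpin2 (0.29), Cidec (-0.19), Apoc3 (0.20), Agpat2 (-0.14), Tm6sf2 (0.15) and Pnpla2 (0.15). That median was 0.25 within slide 1 and -0.28 within slide 2, -0.02 with quantile scaling (14 genes higher), -0.01 without KO vehicle 1 and -0.08 with the stomach and pancreas covariates. Of the genes named, 4 changed direction within a slide: Lpin2 to -0.13 and Apoc3 to -0.26 within slide 2, and Cidec to 0.04 and Pnpla2 to -0.10 within slide 1.

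The intervals bound what these arrays could show. The 95% interval lay within 1 log2 unit of zero for 26, 31, 29 and 31 of the 32 genes in the 4 pairwise comparisons, taken in the order above, and for 16 in the interaction. Changes beyond 1 log2 unit lie outside those intervals, smaller ones may not, and a p above the threshold does not show that the groups were alike.

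The wider pathway list held 63 further genes, of which 57 passed the filter. None passed the adjusted threshold in any of the 7 comparisons, and their medians lay between -0.10 and 0.06. Mogat1, a monoacylglycerol acyltransferase best known from liver and fat rather than intestine, stood out in size. It read -0.04, -0.15 and 0.54 in KO IIAEK, 0.53, 1.37 and 0.38 in KO vehicle, -1.29, -2.32 and 0.47 in WT IIAEK, and -1.94, -2.14 and -1.49 in WT vehicle. Under vehicle the groups did not overlap, and KO minus WT was 2.62 (SE 0.560, adjusted p = 0.680, limma). Mogat1 lies on chromosome 1, as Akp3 does. Plin5, a droplet coat protein of oxidative tissues, was higher in KO on average by 0.78 (SE 0.208, adjusted p = 0.999, limma). Ppara, the fatty acid sensing nuclear receptor, differed by -0.52 under vehicle (SE 0.207). In KO minus WT under IIAEK, the smallest p-values were those of Plin5 (0.80), Lipa (-0.32) and Ces1d (-0.53), a lysosomal lipase and a carboxylesterase after the droplet protein. Ces1d was at 0.69 under IIAEK in WT (SE 0.246), with Agpat1 at 0.24 and Acsl1 at 0.31. In KO, the COPII subunit Sec13 was at -0.41 (SE 0.144) and Agpat5 at -0.35 under IIAEK. The 6 genes that pancreas makes for fat digestion in the lumen are also among the 27 pancreas markers, and their mean was 1.47 on WT vehicle 1 and 6.28 to 8.62 on the other arrays.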

How the data were processed

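RNA of 12 duodenum samples was measured on 12 one-colour arrays, grouped by the titles. Per the file headers, the deposited intensity values came from Agilent Feature Extraction 10.7.3.1, which subtracts background and detrends spatially, on a design of build mm9. The authors' deposited log2 value table has an unstated scale. Recomputed from the scanner files as log2 intensity less the 75th percentile of the array, with every probe centred on its median, it was matched at r of at least 0.999996. Its column medians lay between -0.09 and 0.13. Centring removes levels, so it served as an alternative.

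Here, flagged and control spots were left out (56583 of 56605 probes kept), log2 intensity was reduced by the array's 75th percentile, and a probe was kept where all 3 arrays of some group read it as well above background. Accessions were matched to RefSeq (GRCm38.p6), naming 32978 probes, and the brightest probe stood for a gene. All 32 genes matched, with 49 probes, and 14 genes had over 1 probe. The 4 group means were fitted with limma 3.58.1 in R 4.3.3 (trend, two-sided, Benjamini-Hochberg over 26107 features). The fit was also run on simulated data with independent noise. Those data held no slide or tissue differences, so that run does not show how the fit handles them. Precision is limited by 3 arrays a group. The 75th percentile of intensity was 195 to 465. Genes past an adjusted p of 0.05 or, where none passed, the 6 with the smallest p were named in each comparison. The genes with the 6 widest ranges were given array by array. Wider lists were limited to 3 named genes a comparison. Agpat2, Lpin2, Fabp1, Fabp2 and Mttp were also given by array. Genes and lists were chosen with earlier results of these data known. Alternatives changed background, scaling, filter, probe choice, slide, replicate block, covariates and the arrays included.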

Additional observations from a re-analysis of the deposited data

How the results depend on the processing

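Over all alternatives, 511 values for the comparisons stayed near the main value and 47 moved. Near meant a similar count of calls, or a median within 0.178 log2, the replicate SD of the 32 genes' mean level. Direction was not part of that rule, so some medians close to zero changed sign without counting as moved. The main median exceeded 0.178 in size only for KO minus WT under vehicle and for the interaction. The other medians could reach zero and still count as near. The number of the 32 genes called was 0 in nearly every fit, so it stayed near almost by rule. The tally therefore does not measure how stable the results are. Of the values of named genes, 1105 kept their direction and 11 did not. Outside the fit within slide 2, no gene of the 32 was called. The cause of each change was not tested. Within slide 1, features called were 4 (KO minus WT under vehicle), 8 (KO minus WT under IIAEK), 257 (IIAEK in WT), 58 (IIAEK in KO), 12 (average KO) and 250 (average IIAEK). Within slide 2 they were 80, 14, 0, 255, 49 and 58, with 35 for the interaction and 1 of the 32 genes (Sar1b) for IIAEK in KO. Slide 2 has 1 array in each group but KO vehicle, so its counts compare single arrays, with 1 residual degree of freedom from KO vehicle 2 and 3. Slide 1 has KO vehicle 1 as its only KO vehicle array. Its comparisons of IIAEK with vehicle set arrays poor in stomach transcripts against rich ones. On slide 2, KO vehicle 2 and 3 were poor in stomach transcripts (means of -0.75 and -1.72) and its other arrays were rich. There, IIAEK in KO and KO minus WT under vehicle also set rich arrays against poor ones. In all these comparisons, stomach transcripts and group cannot be told apart. The fits with all arrays called 2, 2, 0, 0, 5 and 0. The medians of the 32 genes within slide 2 were -0.071, -0.31, -0.12, -0.40, -0.18 and -0.28 in that order, and within slide 1 those for IIAEK in KO and average IIAEK were 0.15 and 0.25. The stomach and pancreas covariates partly follow the groups. With them, the medians were 0.013 for KO minus WT under vehicle and -0.023 for IIAEK in WT. In that setting 5 features were called for KO minus WT under IIAEK. With the enterocyte covariate 4 were called there and 8 for average KO. Requiring signal on all 12 arrays gave 0 for both KO minus WT comparisons and 2 for average KO. Average KO called 3 with normexp, 8 without the trend, 8 with slide as a block and 8 with the adipocyte covariate, added after seeing the data. Fitting only the 2 groups compared called 6 for KO minus WT under vehicle.

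Of named genes, 11 values changed direction, all within a slide. For KO minus WT under vehicle Cidec was at -0.025 in slide 2. For IIAEK in WT Apoa4 was at -0.12 and Dgat1 at -0.032 in slide 2. For IIAEK in KO Lpin3 was at 0.11 and Pla2g12b at 0.25 in slide 1. For average KO Lipe was at -0.0069 in slide 1 and Dgat1 at -0.021 in slide 2. For average IIAEK Lpin2 was at -0.13 and Apoc3 at -0.26 in slide 2, and Cidec at 0.036 and Pnpla2 at -0.10 in slide 1.

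Leaving out 1 array at a time, features called ranged from 2 to 18 for KO minus WT under vehicle, 2 to 4 under IIAEK, 0 to 17 for IIAEK in WT, 0 to 1 for the interaction and 2 to 10 for average KO. The highest counts came without WT vehicle 3, KO IIAEK 3 (under IIAEK) and WT IIAEK 3 (average KO). The median of the 32 genes for KO minus WT under vehicle ranged from 0.085 without WT vehicle 1 to 0.41 without WT vehicle 3. With the replicate block, average KO called 4 features and 0 of the 32 genes, and the block changed no call of a named gene. Same-numbered samples had a median r of 0.14 (range -0.25 to 0.70) and differently numbered ones -0.13 (range -0.72 to 0.65). Not every same-numbered pair was positive and the labels name no pairing, so the numbers were not taken to pair samples. All replicate 1 arrays sat on slide 1 and all replicate 3 arrays on slide 2. Neither these correlations nor the block can therefore separate pairing from slide, and pairing was not excluded.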
